A study of Homo sapiens with 16 samples.

Results

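SRF, the transcription factor serum response factor, and 9 genes of the actin cytoskeleton (ACTB, ACTG1, ACTN1, VCL, FLNA, MYH9, TPM1, TPM4 and TAGLN) were followed in a time course of hepatocyte growth factor (HGF), the ligand of the receptor tyrosine kinase MET. The 10 genes were chosen by symbol from the 42351 genes of the count table, and all 10 were among the 15067 genes with enough counts to be tested. Polyadenylated RNA came from cancer cells that express either wt MET or MET∆14, a receptor that lacks part of its juxtamembrane segment through exon skipping. Each line was sampled without HGF (0 h) and after 3, 6 and 12 h of HGF, with 2 replicates per condition and 16 libraries in all. The MET∆14 cells were NCI-H596, a lung adenosquamous carcinoma line, and the sample titles name A549, a lung adenocarcinoma line, for wt MET. The study's text uses EKVX, also a lung adenocarcinoma line, as its cells with wt MET and does not mention A549, so which of these lines was sequenced is uncertain. Each receptor form was represented by 1 cell line, so receptor form and line cannot be told apart. All cells were deprived of serum before HGF, for 12 h by the labels and for 24 h by the study's methods. The 0 h libraries were the only ones without HGF, so time in culture and HGF cannot be told apart.

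SRF binds a short sequence called the CArG box and switches on genes through either of a pair of cofactor families. The MRTF cofactors (MRTFA and MRTFB) are held back by monomeric actin, are released when actin is drawn into filaments, and act on genes of the cytoskeleton, including the actins themselves. The ternary complex factors (ELK1, ELK3 and ELK4) are activated by ERK and act on immediate early genes such as EGR1 and FOS. Actin filaments, their cross-linkers, adhesion proteins and myosin motors shape epithelial cells and drive their movement, and HGF is known for scattering such cells.

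The CArG box is shown here because it is the element through which SRF acts, and it stands just upstream of the SRF gene itself. The window printed first holds the 200 bases before the start of SRF (6:43171069-43171268 on GRCh38.p14, plus strand, outside annotated exons), read 5′ to 3′ from RefSeq, with CArG boxes in capitals. The other lines are 30-base windows around the box of the members that had one, in the direction of the gene.
SRF: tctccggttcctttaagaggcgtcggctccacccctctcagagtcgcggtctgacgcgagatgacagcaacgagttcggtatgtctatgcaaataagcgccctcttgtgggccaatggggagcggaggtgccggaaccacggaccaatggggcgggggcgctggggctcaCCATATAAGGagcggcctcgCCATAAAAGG
ACTG1: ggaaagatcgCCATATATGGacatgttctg
ACTN1: acgctcatgtCCAAAAATGGtaacattcat
FLNA: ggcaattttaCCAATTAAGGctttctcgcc
TPM4: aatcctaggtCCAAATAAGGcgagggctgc

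The boxes began 30 and 10 bases before the start in SRF, 94 bases before it in ACTG1 and in FLNA, 171 bases before it in ACTN1 and 173 bases before it in TPM4. The 4 shorter windows lie at 17:81512874-81512903 (ACTG1, minus strand), 14:68977718-68977747 (ACTN1, minus strand), X:154374709-154374738 (FLNA, minus strand) and 19:16067355-16067384 (TPM4, plus strand). The search covered 250 bases before to 50 bases after each RefSeq start, for the CArG box in its strict form, which reads the same way on both strands. Of the 10 members, 8 had such a window and 5 of these 8 genes held a box, whereas 438 of all 27305 genes (1.60%) did. No box was in the windows of VCL, MYH9 and TPM1, and no window was read for ACTB and TAGLN. SRF, ACTN1 and TPM4 each have more than 1 start, with a box near only 1 of them. The boxes of ACTG1, ACTN1 and TPM4 lay inside the annotated span of their own gene. A match to these letters describes the sequence and was not tested as a binding site.

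The libraries held between 10158590 and 23909304 counts, and levels are given as CPM, which are counts divided by the TMM-adjusted depth of the library, as mean ± SD of the 2 replicates unless a library is named. Changes are log2 fold changes with their standard error (SE) from edgeR's quasi-likelihood test over all 15067 genes, with Benjamini-Hochberg adjusted p, and a gene is called past 0.05. The MET∆14 libraries at 12 h stood apart: the spread between their counts was 35.0 times what counting error alone gives, against 2.77 to 9.88 times in the other 7 conditions, and the log2 ratio of their replicates ran from -0.44 to 0.71 over the members. The members' changes at 12 h with MET∆14 are therefore also given as their range over the fits with 1 library left out. Of the markers of the label A549, CDKN2A, which that line is known to lack, had 0 counts in the wt MET libraries and 86.0 to 157 CPM in the MET∆14 libraries. Of the epithelial markers, the keratin genes KRT8 and KRT18 were high in both lines, while EPCAM, CDH1 and KRT19 were far lower in wt MET cells. EPCAM was at 0.868 to 2.97 CPM with wt MET and 24.4 to 37.4 with MET∆14. CDH1 was at 2.54 to 12.6 and 80.7 to 125 CPM, and KRT19 at 26.7 to 53.1 and 931 to 1754 CPM, in the same order. KRT5, a squamous marker, was at 1743 to 2461 CPM in MET∆14 cells and at most 3 counts in wt MET cells. The lung markers NKX2-1 and SFTPB had at most 18 and 0 counts in any library.

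With MET∆14, all 10 members were higher after HGF at 3 h and at 6 h, and 9 of 10 at 12 h. Of all genes tested, 15.5%, 21.6% and 18.3% were called higher at these times (31.7%, 44.1% and 38.3% in either direction). The median log2 change of the members was 1.19, 1.38 and 1.30, against -0.05, -0.04 and -0.02 over all genes tested. With wt MET, 2, 5 and 2 of the 10 members were called at 3, 6 and 12 h, against 17.4%, 34.2% and 35.1% of all genes tested. Of these, 1, 4 and 1 were higher (10.3%, 16.4% and 16.9% of all genes) and 1 was lower at each time (7.16%, 17.8% and 18.2%). In a test over the 3 times together, 10 of 10 members changed with MET∆14 (54.1% of all genes). With wt MET 4 of 10 changed, near the share of all genes (40.3%). The members' median log2 change with wt MET was 0.18, 0.22 and 0.09 at the 3 times, against -0.04, -0.05 and 0.00 over all genes. The member that fell with wt MET was TPM1. The wt MET counts moved with single libraries: with 1 left out they ran from 1 to 6, 3 to 8 and 1 to 4 at the 3 times and from 2 to 8 over the times together, each highest without a MET∆14 replicate at 12 h. Over the times together, 9 were called with the wt MET line fitted alone and 1 with scaling by library totals. The shares of all genes called under these settings, and with single libraries left out, were not counted.

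The size of the response differed between the lines. The difference, the log2 change with MET∆14 minus that with wt MET, was called for 9 of 10 members at 3 h, 10 of 10 at 6 h and 9 of 10 at 12 h, and it was positive for each of them. Over all genes, 17.4%, 30.2% and 24% had a called difference at these times, and 8.93%, 16.4% and 13% a positive one. The exceptions were FLNA at 3 h and SRF at 12 h. With 1 library left out, the differences of the other 9 at 12 h stayed positive, and the widest range was that of TAGLN (0.94 to 1.65). The test over the 3 times together called all 10 (37.6% of all genes). FLNA differed by 0.43 at 3 h (95% interval 0.04 to 0.82, adjusted p = 0.132), a difference that DESeq2 called (adjusted p = 0.0363), as did edgeR without either MET∆14 replicate at 12 h (0.43 without replicate 1, adjusted p = 0.00428, and 0.41 without replicate 2, adjusted p = 0.00626). SRF differed by -0.09 at 12 h (95% interval -0.34 to 0.15, adjusted p = 0.618).

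**Figure D1:**
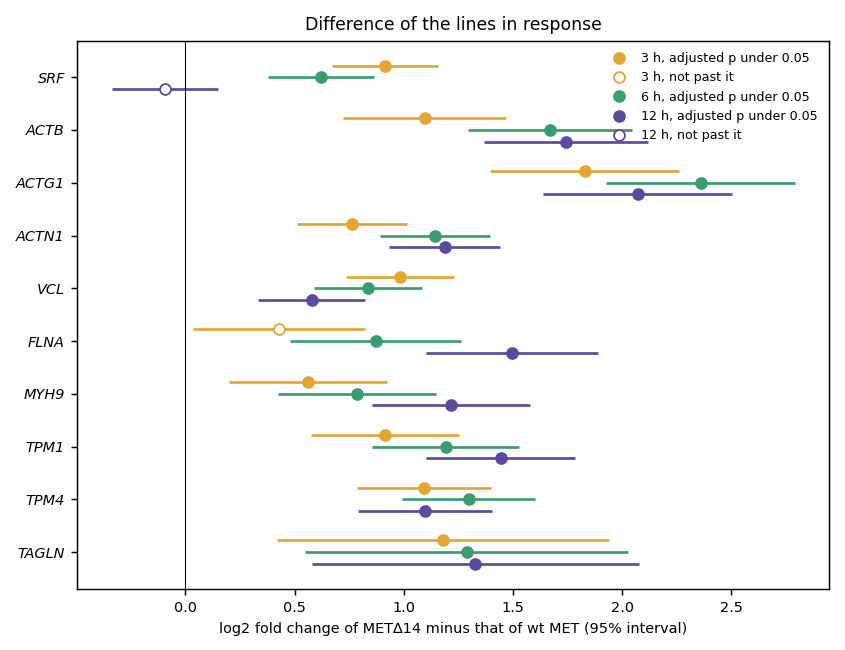
Difference of the lines in the log2 fold change against 0 h (MET∆14 minus wt MET) for each member at 3, 6 and 12 h, with 95% intervals and open symbols where the adjusted p was not below 0.05. ACTG1 at 6 h is the largest at 2.36, and the open symbols are FLNA at 3 h and SRF at 12 h.

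SRF itself (ENSG00000112658, 6:43171269-43181506 on hg38) rose and fell back within the time course in MET∆14 cells. Its replicates were at 48.5 and 49.8 CPM at 0 h, 115 and 119 at 3 h, 90.5 and 93.7 at 6 h, and 52.5 and 56.7 at 12 h. Both libraries at 3 h were above all the others of the line, and those at 12 h lay only just above those at 0 h. The log2 change was 1.25 (SE 0.08) at 3 h, with an edgeR adjusted p of 4e-08, and 0.91 (SE 0.08) at 6 h. At 12 h it was 0.15 (95% interval -0.02 to 0.32, adjusted p = 0.166; 0.08 to 0.21 with 1 library left out), and SRF fell by 1.10 on the log2 scale from 3 h to 12 h (SE 0.08, edgeR adjusted p = 3.58e-07). In wt MET cells the replicates were at 63.0 and 60.2 CPM at 0 h, 82.6 and 73.1 at 3 h, 74.0 and 76.2 at 6 h, and 73.6 and 72.3 at 12 h. Every library with HGF was above both libraries without it, while the 3 later times lay close together. The log2 changes were 0.34, 0.29 and 0.24 (SE 0.08 each), with edgeR adjusted p of 0.00902, 0.0128 and 0.0286. The calls depended on single libraries. With 1 library left out the changes stayed positive and ran from 0.27 to 0.44 at 3 h, 0.28 to 0.33 at 6 h and 0.21 to 0.28 at 12 h. Without replicate 1 at 3 h the change at that time was 0.27 (adjusted p = 0.0912), and without replicate 2 at 6 h the change at 6 h was 0.28 (adjusted p = 0.0686). At 12 h leaving out any of the wt MET libraries at 0, 6 or 12 h ended the call (adjusted p 0.0502 to 0.162), with changes of 0.21 to 0.28. Upper quartile scaling ended the calls at 6 and 12 h (edgeR adjusted p = 0.0629 and 0.141). Scaling by library totals ended them too, with changes of 0.18 and 0.17.

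The cytoplasmic actins ACTB and ACTG1 build the filaments of non-muscle cells. ACTB (beta-actin, 7:5526409-5563902) was at 3097 and 3473 CPM at 0 h in MET∆14 cells, at 8384 and 7368 at 3 h, at 11106 and 12849 at 6 h, and at 9683 and 11672 at 12 h. Every library with HGF was above both at 0 h, and the libraries at 6 and 12 h overlapped. Its log2 change was 1.26 (SE 0.13) at 3 h, 1.87 (SE 0.13) at 6 h and 1.70 (SE 0.13) at 12 h, with edgeR adjusted p of 2.34e-06, 3.79e-08 and 2.07e-07, and the last ranged from 1.55 to 1.83 with 1 library left out. With wt MET, ACTB stayed between 3242 and 4027 CPM, with log2 changes of 0.17, 0.20 and -0.04 that were not called (95% intervals -0.10 to 0.43, -0.07 to 0.46 and -0.31 to 0.22). When the wt MET line was fitted alone, the change at 6 h was called (0.22, edgeR adjusted p = 0.0238).

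ACTG1 (gamma-actin, 17:81509413-81523847) had the largest change of the 10 genes at each time in MET∆14 cells. It was at 750.3 and 916 CPM at 0 h, 3372 and 2940.0 at 3 h, 4253 and 4878 at 6 h, and 2587 and 3442 at 12 h. The libraries with HGF were all above those without it, and those at 3 and 12 h overlapped. The log2 change was 1.92, 2.45 and 1.86 (SE 0.15 each), with edgeR adjusted p of 1.82e-07, 1.19e-08 and 3.53e-07, and the change at 12 h lay within 1.62 to 2.05 with 1 library left out. With wt MET, ACTG1 lay between 3723 and 4974 CPM, and its log2 changes of 0.09, 0.09 and -0.22 were not called (95% intervals -0.21 to 0.40, -0.21 to 0.40 and -0.52 to 0.08). Fitted alone, the wt MET line gave a called change of ACTG1 at 12 h (-0.20, edgeR adjusted p = 0.0435). MET∆14 cells began with much less of it: at 0 h ACTG1 was lower in them by 2.46 on the log2 scale (833 ± 117 against 4571 ± 373 CPM, n = 2, edgeR adjusted p = 5.19e-10), and at 6 h both lines were close, at 4566 ± 442 and 4879 ± 88.9 CPM. The 2 actin genes are near-identical in their coding parts, and reads that fit both, or a processed copy elsewhere, could be split by the counting. The 10 ACTB pseudogenes in the table held 1306 counts over all libraries beside 1547582 for ACTB, and the 20 ACTG1 pseudogenes 410 beside 932430 for ACTG1.

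The balance of the actins also moved. There were 0.753 to 0.872 counts of ACTB per count of ACTG1 in the wt MET libraries. The ratio there was 0.757 and 0.753 at 0 h, 0.799 and 0.789 at 3 h, and 0.805 and 0.815 at 6 h. At 12 h it was highest, at 0.872 and 0.833. In MET∆14 cells the ratio was 4.13 and 3.79 at 0 h, 2.49 and 2.51 at 3 h, 2.61 and 2.63 at 6 h, and 3.74 and 3.39 at 12 h. Every MET∆14 library was above every wt MET library. Within MET∆14 cells the ratio was lowest at 3 h, when ACTG1 had gained more than ACTB.

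ACTN1 (alpha-actinin, which cross-links filaments, 14:68874128-68979440) rose in MET∆14 cells from 272 and 289 CPM at 0 h to 559 and 543 at 3 h, 737 and 829.9 at 6 h, and 711 and 686 at 12 h. No library of one time overlapped with another time. It changed on the log2 scale by 0.97 (SE 0.08) at 3 h, 1.48 (SE 0.09) at 6 h and 1.32 (SE 0.08) at 12 h, with edgeR adjusted p of 5.92e-07, 6.97e-09 and 7.06e-08. With 1 library left out the change at 12 h was 1.27 to 1.36. When the wt MET line was fitted alone, ACTN1 was called at 3 h too (0.23, edgeR adjusted p = 0.0144). In the fit of all libraries it was called with wt MET at 6 h only, at 0.34 (SE 0.08, edgeR adjusted p = 0.00583), and ranged from 298 to 398 CPM. Without wt MET replicate 1 at 0 h that change was 0.29 (adjusted p = 0.0502).

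VCL (vinculin, which links filaments to adhesions, 10:73995193-74121363) went from 215 and 225 CPM at 0 h in MET∆14 cells to 528 and 480.4 at 3 h, 451 and 468 at 6 h, and 374 and 339 at 12 h. Like SRF, it was highest at 3 h and then declined, with no overlap between times. On the log2 scale VCL rose by 1.20, 1.06 and 0.70 (SE 0.08 each), with edgeR adjusted p of 7.7e-08, 1.26e-07 and 1.35e-05, and VCL fell by 0.50 from 3 h to 12 h (SE 0.08, edgeR adjusted p = 0.000442). The rise at 12 h was 0.62 to 0.75 with 1 library left out. With wt MET it lay between 378 and 453 CPM, and its log2 change of 0.22 at 6 h was just past the threshold (adjusted p = 0.0459) but not with any wt MET library at 0 or 6 h left out (adjusted p 0.0702 to 0.122), nor in the fit with the replicate number as a block (adjusted p = 0.0504). Part of its exons, 11.1%, overlaps AP3M1 on the other strand, which lay between 54.8 and 60.3 CPM on average over the MET∆14 conditions.

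FLNA (filamin A, which joins filaments into networks, X:154348524-154374634) kept rising with MET∆14. Its replicates were at 2702 and 3007 CPM at 0 h, 4388 and 4419 at 3 h, 5508 and 6341 at 6 h, and 7969 and 5907 at 12 h. The libraries at 12 h differed from each other by more than those of any other time, and they overlapped those at 6 h. Its log2 change was 0.63, 1.05 and 1.28 (SE 0.13 each), with edgeR adjusted p of 0.00186, 1.33e-05 and 3.85e-06, and the change at 12 h was between 1.05 and 1.47 with any 1 library left out. FLNA in wt MET cells was at 3786 ± 25.9 CPM at 0 h and 3259.9 ± 111 at 12 h (n = 2), with log2 changes of 0.20, 0.18 and -0.22 that were not called. When that line was fitted alone, the changes were 0.22, 0.21 and -0.20 and were called (edgeR adjusted p = 0.0364, 0.0267 and 0.0339).

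MYH9 (the heavy chain of a non-muscle myosin, the motor that pulls on filaments, 22:36281280-36388010) followed FLNA in MET∆14 cells. It was at 749 and 799 CPM at 0 h, 1497 and 1372 at 3 h, 1789.8 and 1959 at 6 h, and 2329.5 and 1723 at 12 h. All libraries with HGF were above those without it, and those at 6 and 12 h overlapped. The log2 change was 0.89, 1.28 and 1.39 (SE 0.12 each), with edgeR adjusted p of 4.84e-05, 9.6e-07 and 1.03e-06, and at 12 h it was between 1.15 and 1.58 with 1 library left out. MYH9 rose in wt MET cells at 6 h, by 0.49 (SE 0.12, edgeR adjusted p = 0.0057), from 1227 and 1229 CPM to 1655 and 1790.3. The difference of the lines at 3 h, 0.56, was called (edgeR adjusted p = 0.0323), but leaving out any 1 of the libraries other than those of MET∆14 at 6 and 12 h ended that call (adjusted p 0.0516 to 0.140), with differences of 0.48 to 0.60.

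The tropomyosins TPM1 and TPM4, which coat filaments and govern what binds to them, went separate ways in wt MET cells. TPM1 (15:63042620-63071915) fell from 183 and 171 CPM at 0 h to 121 and 121 at 3 h, 119 and 125 at 6 h, and 96.4 and 88.3 at 12 h. Every library with HGF was below both libraries without it, and those at 12 h were below all others. TPM1 fell by 0.55, 0.54 and 0.94 on the log2 scale (SE 0.11 each), with edgeR adjusted p of 0.00244, 0.00143 and 1.97e-05. TPM4 (19:16067021-16103002) was at 509.7 to 601 CPM in the wt MET libraries, and its log2 changes of 0.10, 0.21 and 0.15 were not called. TPM4 was called at 6 h and 12 h when the wt MET line was fitted alone (0.24 and 0.17, edgeR adjusted p = 0.00824 and 0.0411).

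In MET∆14 cells both tropomyosins rose. TPM4 was at 362 and 397 CPM at 0 h, 922 and 810.1 at 3 h, 1056 and 1101 at 6 h, and 824 and 984 at 12 h, so that every library with HGF held more than both without it. Its log2 change was 1.19, 1.51 and 1.25 (SE 0.10 each), with edgeR adjusted p of 5.61e-07, 3.79e-08 and 5.15e-07 (1.11 to 1.37 at 12 h with 1 library left out). TPM1 was far lower, at 31.0 and 34.0 CPM at 0 h, 44.4 and 39.6 at 3 h, 45.7 and 56.3 at 6 h, and 41.8 and 51.2 at 12 h. The times with HGF were above 0 h but overlapped one another between 3 and 12 h and between 6 and 12 h. These were log2 changes of 0.36, 0.66 and 0.51 (SE 0.12 each), with edgeR adjusted p of 0.0276, 0.000307 and 0.00328. The change at 12 h was 0.35 to 0.65 with 1 library left out. The change at 3 h was no longer called without MET∆14 replicate 1 at 0 h (0.30, adjusted p = 0.182), replicate 2 at 0 h (0.44, 0.0577) or replicate 1 at 3 h (0.29, 0.196), and with upper quartile scaling (0.31, adjusted p = 0.0607) or library totals alone (0.29, adjusted p = 0.0620). The difference of the lines for TPM1 was 0.91, 1.19 and 1.44 (SE 0.16 each), with edgeR adjusted p of 0.00102, 5.1e-05 and 2e-05. There were 2.79 and 3.05 counts of TPM4 per count of TPM1 in wt MET cells at 0 h and 5.70 and 6.79 at 12 h, against 11.7 in both MET∆14 libraries at 0 h and 19.2 to 23.1 in those with HGF. TPM1 and TPM4 each give several isoforms, which counts per gene do not separate, and 22.7% of the annotated exon sequence of TPM1 is overlapped by genes of the other strand.

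TAGLN (transgelin, an actin-binding protein abundant in smooth muscle, 11:117199370-117207464) had the lowest counts of the 10 genes. In MET∆14 cells it was at 13.7 and 17.3 CPM at 0 h, 42.5 and 35.2 at 3 h, 39.8 and 55.2 at 6 h, and 31.5 and 51.4 at 12 h. The libraries with HGF were all above those without it and overlapped one another. The log2 change was 1.31, 1.62 and 1.39 (SE 0.21 each), with edgeR adjusted p of 0.000285, 2.65e-05 and 0.000162, and at 12 h it ranged from 0.9997 to 1.72 with 1 library left out. In wt MET cells it lay between 5.85 and 8.14 CPM, and the changes of 0.13, 0.33 and 0.07 were not called (95% intervals -0.47 to 0.74, -0.26 to 0.92 and -0.52 to 0.66). The difference of the lines at 3 h, 1.18, was just past the threshold (adjusted p = 0.0331) and was lost when any of 7 libraries was left out, namely the wt MET libraries at 0 and 3 h, wt MET replicate 1 at 6 h, and MET∆14 replicate 1 at 0 h and at 3 h (adjusted p 0.0501 to 0.117). The counts of this gene are uncertain, because 66.0% of the exon sequence of its main transcript is shared with ENSG00000280143 on the same strand and 59.0% with PCSK7 on the other, and the use of strand in the counting is not given in the sources used here. In MET∆14 cells ENSG00000280143 went from 3 to 6 counts at 0 h to 31 to 73 at 6 h, and PCSK7 from 76.8 ± 6.38 to 90.5 ± 7.61 CPM (n = 2). The part of these genes in the TAGLN counts was not tested. Of the 5 smooth muscle markers, DES had at most 1 count and MYH11 at most 4 in any library. MYOCD had 0 counts in MET∆14 cells and at most 73 in a wt MET library. The summed level of the 5 markers in MET∆14 cells, almost all from SMTN, was 31.4 to 37.7 CPM at 0 h and 86.5 to 141 CPM at 12 h. In wt MET cells the sum was 60.9 to 85.9 CPM at 0 h, 117 to 126 at 6 h and 88.5 to 104 at 12 h.

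**Figure D2:**
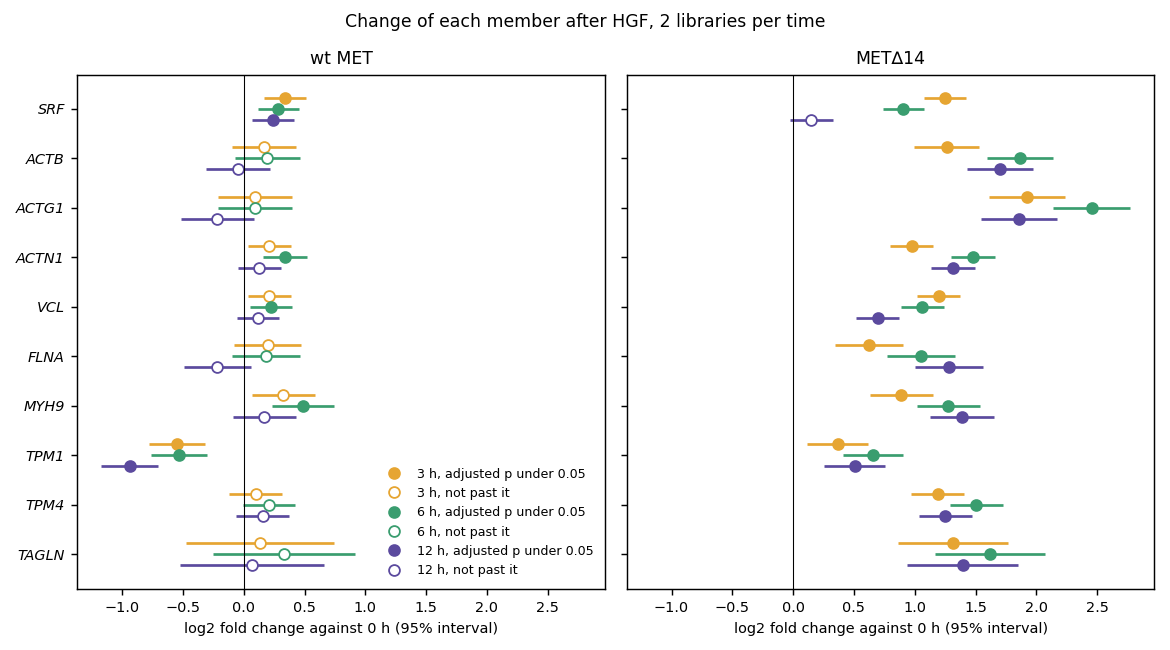
Log2 fold change against 0 h of each member at 3, 6 and 12 h of HGF, with 95% intervals, for wt MET and MET∆14. TPM1 falls by 0.94 at 12 h with wt MET, and ACTG1 reaches 2.45 at 6 h with MET∆14.

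The members did not peak together in MET∆14 cells. SRF and VCL had their highest mean at 3 h, ACTB, ACTG1, ACTN1, TPM1, TPM4 and TAGLN at 6 h, and FLNA and MYH9 at 12 h. The first place was clear of the next time, with no overlap of the libraries, for SRF, VCL, ACTG1, ACTN1 and TPM4, whereas it overlapped 12 h for ACTB, TPM1 and TAGLN and overlapped 6 h for FLNA and MYH9. How often the first place was clear over all genes was not counted. From 3 h to 12 h, 6 of 10 members changed in MET∆14 cells, against 27.9% of all genes tested. SRF and VCL were lower, and FLNA rose by 0.66 (SE 0.13, edgeR adjusted p = 0.00196), MYH9 by 0.50, ACTB by 0.44 and ACTN1 by 0.34. In wt MET cells 2 of 10 changed between these times, near the share of all genes (19.9%, with 11.1% lower). Both were lower: FLNA fell by 0.41 (edgeR adjusted p = 0.0368) and TPM1 by 0.39 (edgeR adjusted p = 0.0205). Without replicate 2 of MET∆14 at 3 h the first count was 3, with ACTB, ACTN1 and MYH9 lost, and without either wt MET replicate at 3 h or replicate 2 at 12 h the second was 0.

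Before HGF the lines differed in 8 of the 10 members, near the share of all genes tested (80.2%, with 40.6% higher and 39.6% lower in MET∆14 cells). TAGLN was higher in MET∆14 cells by 1.35 (SE 0.25, edgeR adjusted p = 0.000184). Lower in MET∆14 cells were ACTG1 by a log2 difference of -2.46, TPM1 by -2.44, VCL by -0.82, MYH9 by -0.66, TPM4 by -0.44, FLNA by -0.41 and SRF by -0.33. ACTB (-0.07, adjusted p = 0.605) and ACTN1 (-0.14, adjusted p = 0.144) were not called. The FLNA call was lost without MET∆14 replicate 1 at 0 h (-0.31, adjusted p = 0.105). By 12 h, 3 of the 7 that had begun lower were above both wt MET libraries in level. MYH9 was at 1723 and 2329.5 CPM against 1369.8 and 1394. FLNA was at 5907 and 7969 CPM against 3182 and 3338, and TPM4 at 824 and 984 against 549.1 and 599.7. TPM1, VCL, SRF and ACTG1 lay below their wt MET levels in both libraries. The share of all genes whose libraries lay apart in this way was not counted, and the MET∆14 replicates at 12 h had the widest spread.

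Per kilobase of the main transcript, the actins led in every condition. ACTG1 came first in wt MET cells, with a level at 0 h of 2382 CPM per kilobase against 1905 for ACTB, and ACTB came first in MET∆14 cells, with 1813 against 434 at 0 h and 5893 against 1571 at 12 h. FLNA and TPM4 followed in that order in all 8 conditions. SRF ranked 9 of 10 throughout, with levels of 11.6 to 27.6 CPM per kilobase, above TAGLN alone.

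The 10 genes together took 1.26% to 1.57% of all counts in the wt MET libraries. In MET∆14 cells their share was 0.897% and 1.01% at 0 h, 2.06% and 1.89% at 3 h, 2.56% and 2.80% at 6 h, and 2.61% and 2.65% at 12 h. The MET∆14 libraries were thus below every wt MET library without HGF and above every one of them with it. ACTB was the gene with the most counts in the 4 MET∆14 libraries at 6 and 12 h, a place that MTCO1P12, a pseudogene of a mitochondrial gene, held in the other 12 libraries. In whole-culture RNA, a change in the level per cell and a change in the share of cells that express a gene cannot be told apart.

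**Figure D3:**
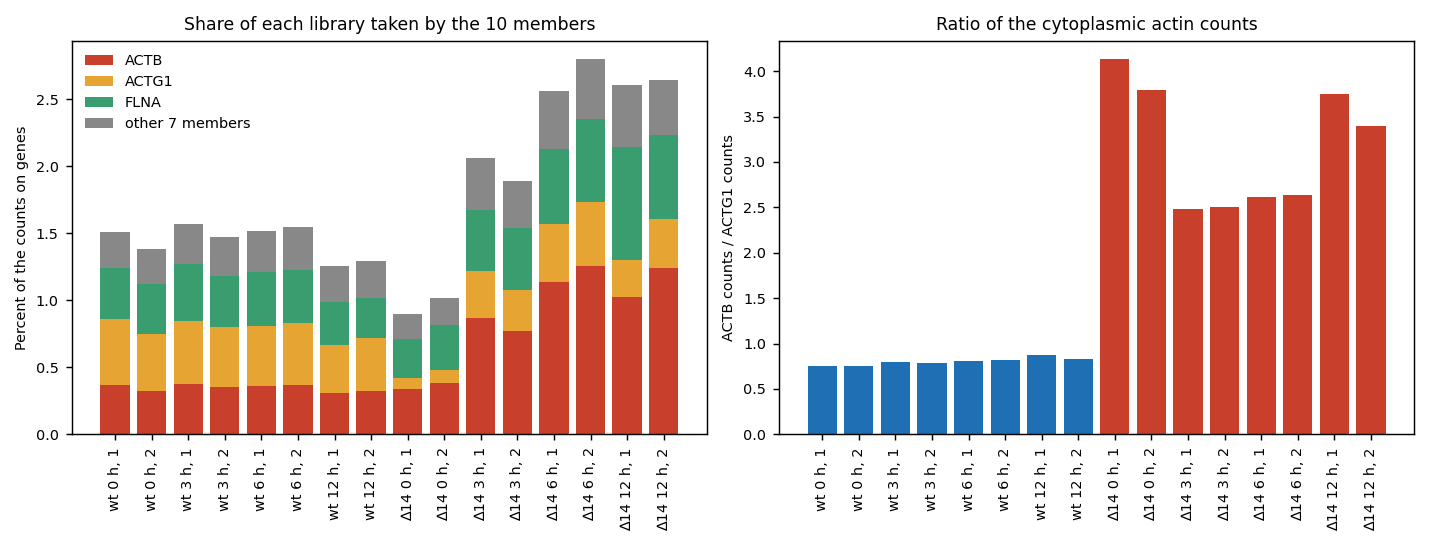
Left, percent of each library's counts taken by ACTB, ACTG1, FLNA and the other 7 members, as stacked bars for each of the 16 libraries. Right, counts of ACTB per count of ACTG1 in each library, in blue for wt MET and in red for MET∆14. In the left panel the MET∆14 libraries go from 0.897% and 1.01% at 0 h to 2.61% and 2.65% at 12 h, and the wt MET libraries stay between 1.26% and 1.57%.

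The other genes of the pathway fell into groups that did not move alike. Of 27 further genes known as MRTF-SRF targets, 17 rose and 2 fell at 3 h with MET∆14, 17 rose and 1 fell at 6 h, and 14 rose and 5 fell at 12 h, with median log2 changes of 0.53, 0.93 and 0.45. Of all genes, 15.5%, 21.6% and 18.3% rose with MET∆14 and 16.1%, 22.5% and 20.1% fell. With wt MET the same list had 6, 8 and 5 genes higher (10.3%, 16.4% and 16.9% of all genes) and 2, 5 and 5 lower (7.16%, 17.8% and 18.2%), with medians of 0.06, 0.07 and 0.05. The genes called with wt MET were 29.6%, 48.1% and 37.0% of the list, against 17.4%, 34.2% and 35.1% of all genes, so that at 12 h the list lay near the background. MICAL2, an enzyme that oxidises actin, went from 51.3 ± 6.34 CPM to 301 ± 28.1, 299 ± 14.5 and 192 ± 23.9 with MET∆14 (n = 2), with log2 changes of 2.55, 2.54 and 1.90 (SE 0.11 each, edgeR adjusted p of 2.11e-09, 1.6e-09 and 2.75e-08). FLNC, the muscle filamin, rose there by 2.29, 2.57 and 1.93 from 5.08 ± 0.185 CPM (n = 2). CNN2, a calponin that binds actin, moved in opposite directions: it fell by 0.58, 0.95 and 0.71 with wt MET and rose by 0.82, 0.96 and 0.63 with MET∆14, all called, and the differences of 1.40, 1.92 and 1.35 were called as well. PDLIM7 rose in both lines, by 0.63, 0.79 and 0.48 with wt MET and by 0.63, 1.04 and 1.27 with MET∆14.

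The 12 immediate early genes known as targets of ternary complex factors and SRF showed the reverse order of the lines. With wt MET all 12 were called higher at 3 h and at 6 h and 6 at 12 h, against 10.3%, 16.4% and 16.9% of all genes. The median log2 changes were 4.46, 2.60 and 0.54. With MET∆14, 9 were higher and 1 lower at 3 h, 5 higher and 3 lower at 6 h, and 3 higher and 8 lower at 12 h, with medians of 1.03, -0.04 and -0.85. Over all genes, 15.5%, 21.6% and 18.3% were higher with MET∆14 and 16.1%, 22.5% and 20.1% lower. The difference of the lines was called at each time for 9 of the 12 genes, negative for 8 and positive for FOSL1. Over all genes, 17.4%, 30.2% and 24% had a called difference, and 8.47%, 13.8% and 11% a negative one. EGR1 went from 86.8 ± 43.6 CPM at 0 h to 2282 ± 112 at 3 h in wt MET cells (log2 change 4.72, SE 0.25, edgeR adjusted p = 5.25e-08), while in MET∆14 cells its log2 change was -0.86 at 3 h and -2.81 at 12 h, from 219.96 ± 11.2 CPM at 0 h to 31.3 ± 2.92 at 12 h (n = 2). EGR2 and FOSB rose by 6.18 and 5.21 at 3 h with wt MET and by 0.98 and 0.99 with MET∆14. FOSL1, which encodes the AP-1 subunit FRA1, rose by 3.04 with MET∆14 and by 1.25 with wt MET at 3 h.

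The cofactors of SRF were measured as well. MRTFA was at 136 ± 2.13 CPM at 0 h in wt MET cells and 248.8 ± 22.4 at 6 h (log2 change 0.87, SE 0.09, edgeR adjusted p = 3.19e-06), and it stayed between 29.0 and 36.7 CPM on average in MET∆14 cells, where no change against 0 h was called. MRTFB fell by 0.71 at 3 h and by 0.44 at 6 h with MET∆14 (adjusted p = 0.00195 and 0.024), and its changes with wt MET were not called. ELK3 rose with MET∆14 from 12.2 ± 0.822 CPM to 43.0 ± 2.74 at 6 h (log2 change 1.82, SE 0.12, edgeR adjusted p = 2.88e-08), against 315 ± 51.8 CPM at 0 h with wt MET. ELK1 rose with wt MET at 6 h (0.47) and 12 h (0.67) and with MET∆14 at 3 h (0.49), and ELK4 was called only with MET∆14 at 6 h (-0.30, adjusted p = 0.0409).

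Of 39 tested genes for other parts of actin filaments and their assembly, 15 rose and 0 fell at 3 h with MET∆14, 25 rose and 3 fell at 6 h, and 22 rose and 5 fell at 12 h, with median log2 changes of 0.18, 0.34 and 0.27. Over all genes, 15.5%, 21.6% and 18.3% rose with MET∆14 and 16.1%, 22.5% and 20.1% fell. In either direction, 38.5%, 71.8% and 69.2% of the list were called, against 31.7%, 44.1% and 38.3% of all genes. With wt MET 5, 7 and 5 rose and 1, 8 and 10 fell. These were 15.4%, 38.5% and 38.5% of the list, near the 17.4%, 34.2% and 35.1% of all genes called. CORO1C, a coronin that binds filaments, rose with MET∆14 by 0.88, 1.20 and 0.86. In wt MET cells CORO1B fell by 0.60 at 6 h and 1.20 at 12 h, while with MET∆14 its changes of -0.20, 0.04 and 0.00 were not called. MYH14, another myosin heavy chain, rose by 0.79, 0.77 and 0.67 with wt MET. It moved the other way with MET∆14, where it fell by 0.38 at 6 h and 0.51 at 12 h (adjusted p = 0.0115 and 0.00243) and its change of -0.27 at 3 h was not called. None of the 35 genes of this list with a promoter window held a CArG box, which is near the share over all genes (438 of 27305, 1.60%). Of the MRTF targets 5 of 25 held one, and of the ternary complex factor targets 2 of 8.

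**Figure D4:**
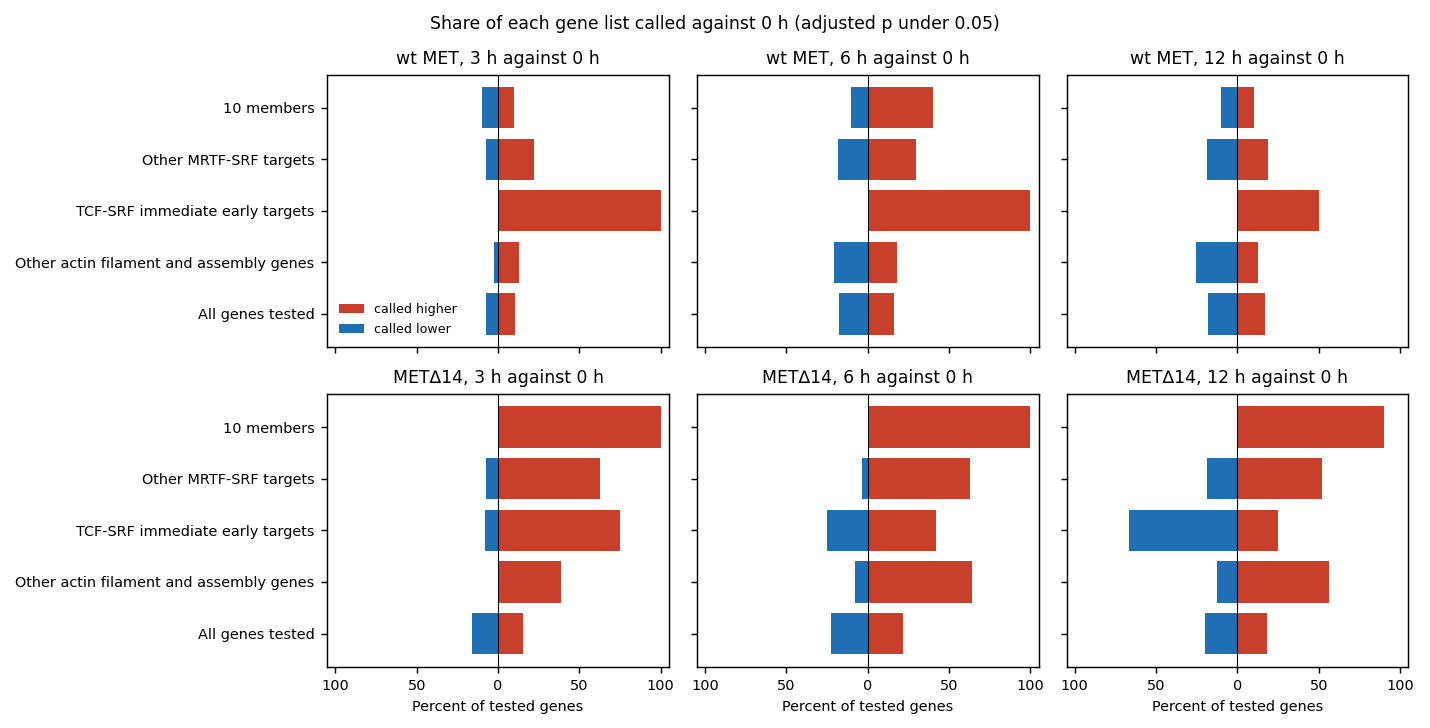
Percent of the members, of the tested genes of 3 lists and of all genes called higher or lower against 0 h at 3, 6 and 12 h of HGF, for wt MET (top) and MET∆14 (bottom), with bars to the right for higher and to the left for lower. The immediate early list reaches 100% called higher at 3 h with wt MET, while the members reach it with MET∆14.

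The genes whose profile was most like that of SRF were ZBTB9 (Pearson r = 0.990), UTP3 (0.983) and TLNRD1 (0.982), over 8 condition means centred within each line and among 8570 genes. Of the other members, VCL was nearest (r = 0.894, rank 138), followed by ACTG1 (0.664), TPM4 (0.635), ACTN1 (0.507), ACTB (0.491), MYH9 (0.420), FLNA (0.238) and TPM1 (0.131), and TAGLN was below the level set for this comparison. UBASH3B (0.995), WDR1 (0.993) and FRMD4A (0.993) were closest to the mean of the 9 other members. These values describe 8 means that share libraries and carry no test. With Spearman's correlation the 3 genes listed first were CD3EAP, EPHA2 and FEM1A for SRF (1 each). For the 9 members they were GATAD2A, GNAI3 and GPATCH4 (0.976 each). Genes of equal value were listed in order of name, and how many shared these values was not counted.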

How the data were processed

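RNA was sequenced from wt MET and MET∆14 cells at 0, 3, 6 and 12 h of HGF, in 2 biological replicates per condition. The authors trimmed adapters, mapped reads with STAR to hg38 and deposited whole-number counts per gene without normalization. The submitters' processing notes list STAR 2.5.0 and RSEM 1.3.2 without roles. If RSEM made the table, the deposited counts are rounded estimates. Annotation version and use of strand are not given in the sources used here. The table spells the wt MET line differently from the sample titles, and its columns were assigned by the rest of their names. 0 columns were left without a sample. The study also describes RNA sequencing of cells with amplified wt MET, and none of the 16 libraries used here is labelled as such.

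The test was edgeR's (edgeR 4.0.16 with limma 3.58.1, under R 4.3.3): filterByExpr (minimum count 10, minimum total 15), TMM scaling, and a robust quasi-likelihood fit with 1 coefficient per condition over the 16 libraries. Adjusted p-values (Benjamini-Hochberg, threshold 0.05) run over all genes tested. SE is the log2 fold change divided by the square root of the F statistic, and 95% intervals use its degrees of freedom. Tests of any change over time and the additive model of line and time used by the study were also run. An added prior count of 2 was used for log2 CPM. Transcript lengths come from GENCODE's MANE transcripts on hg38. The members' coordinates are those of the whole GENCODE gene, which spans all its annotated transcripts. Promoter sequences come from RefSeq (GRCh38.p14).

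On simulated counts of 14839 genes, with a 2-fold change of 200 at 3 h in the MET∆14 arm, edgeR recovered 95.5% of changed genes with 10 other calls. The test of the difference of the lines recovered 77.5% with 10 other calls. Each simulated gene had the same spread in all libraries, while the real spread was far wider with MET∆14 at 12 h. These rates therefore need not hold for the real counts. The alternatives were DESeq2 1.42.0, other scalings, low-count filters and thresholds, a replicate block, each line alone, and each library left out.

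The members and lists were chosen with earlier results of these data known. Named beside the members were MRTFA, MRTFB and ELK1, ELK3 and ELK4, up to 2 genes per list and line with the largest mean change among those called at any time and at a mean log2 CPM of 3 or more, and the 3 genes with the most similar profile. Some of these genes and 1 list are not reported here. Figures were drawn with Python and matplotlib.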

Additional observations from a re-analysis of the deposited data

Results flagged for a closer look

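The response to HGF differed between the lines, by edgeR's test of the difference over all genes, in 28 of the 30 comparisons of a member at a time, against 17.4%, 30.2% and 24% of all genes at 3, 6 and 12 h. Values are the log2 fold change with MET∆14 minus that with wt MET. At 3 h the difference was 0.91 for SRF, 1.10 for ACTB, 1.83 for ACTG1, 0.76 for ACTN1, 0.98 for VCL, 0.56 for MYH9, 0.91 for TPM1, 1.09 for TPM4 and 1.18 for TAGLN. At 6 h it was 0.62 for SRF, 1.67 for ACTB, 2.36 for ACTG1, 1.14 for ACTN1, 0.84 for VCL, 0.87 for FLNA, 0.79 for MYH9, 1.19 for TPM1, 1.30 for TPM4 and 1.29 for TAGLN. At 12 h it was 1.74 for ACTB, 2.07 for ACTG1, 1.19 for ACTN1, 0.58 for VCL, 1.50 for FLNA, 1.22 for MYH9, 1.44 for TPM1, 1.10 for TPM4 and 1.33 for TAGLN. Each line is also the only carrier of its receptor form, so these differences between receptor forms and between lines cannot be told apart.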

How the results depend on the processing

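No called change of a member turned direction under any alternative run. The shares of all genes called were not counted for the alternative runs, so the counts of members below have no background of their own. With MET∆14 the count of members called stayed within 9 to 10 at 3 h, 10 at 6 h, 9 at 12 h and 10 at any time when single libraries were left out, and that of the difference of the lines within 7 to 10 at 3 h, 9 to 10 at 6 h, 8 to 9 at 12 h and 9 to 10 at any time. The differences for TAGLN at 6 h and at 12 h were lost without some single libraries, with adjusted p of at most 0.0555 and 0.0516. The lines at 0 h gave 7 to 8 and the additive model, with 6 members called (30.6% of all genes), 4 to 8, or 2 at an adjusted p of 0.01. MET∆14 from 3 h to 12 h gave 3 to 6, with 3 without replicate 2 at 3 h.

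The wt MET counts were less stable. At 3 h (2 called) DESeq2 gave 5 and the line fitted alone 6, and leaving out a library gave 1 to 6: 1 without wt MET replicate 1 at 3 h, and 5 and 6 without MET∆14 replicates 1 and 2 at 12 h. At 6 h (5 called) upper quartile scaling, library totals and a threshold of 0.01 gave 3 each and the line alone 8, and the range was 3 to 8: 3 without wt MET replicate 1 at 0 h or replicate 2 at 6 h, 8 without MET∆14 replicate 2 at 12 h. At 12 h (2 called) upper quartile, library totals, no low-count filter and 0.01 gave 1 each and the line alone 6, and the range was 1 to 4: 1 without any single wt MET library at 0, 6 or 12 h, 4 without MET∆14 replicate 1 at 12 h. From 3 h to 12 h (2 called) the line alone gave 4 and 0.01 gave 0, with a range of 0 to 5: 0 without either wt MET replicate at 3 h or replicate 2 at 12 h, 1 without replicate 1 at 12 h, 5 without MET∆14 replicate 2 at 12 h. At any time (4 called, 40.3% of all genes) library totals and 0.01 gave 1 each, no filter 7 and the line alone 9, with a range of 2 to 8: 2 without wt MET replicate 1 at 0 h or replicate 2 at 6 h, 8 without either MET∆14 replicate at 12 h. The causes were not tested.

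The replicate numbers did not pair the libraries: over 28 pairs of conditions the correlation of same-numbered deviations ran from -0.16 to 0.11, over 0.1 in 1. With the number as a block, 4 members were called at 6 h with wt MET in place of 5, and every other count of members was equal to that without it. Scaling by library totals moved the median log2 change of all genes by -0.14 at 6 h with MET∆14 and by -0.11 at 6 h with wt MET, and took the share of higher calls from 49.0% to 33.5% and from 47.8% to 32.8%. At 3 h with wt MET it went from 59.0% to 37.6%.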
